A study of Mus musculus with 28 samples.

Results

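The proximal colon of mice killed early in AOM/DSS treatment was compared with the proximal colon of untreated mice. AOM (azoxymethane) is a colon carcinogen and DSS (dextran sulphate sodium) injures the colonic epithelium and brings on colitis, so the pair is a standard mouse model of colitis-associated cancer. All 3 arrays labelled early proximal and all 6 labelled untreated proximal were used, which makes 9 of the 28 arrays of the series. For each of 14123 genes, the probe set with the highest average level on the 28 arrays was taken. According to the labels, lesions formed in the distal colon and the proximal colon was spared, so the comparison describes a region without lesions across genes.

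All mice were labelled female C57BL/6J. Early mice received 10 mg/kg AOM by intraperitoneal injection, then 2.5% DSS in the drinking water from 96 h later, in 2 cycles that each paired 5 days of DSS with 14 days of plain water, and were killed on day 42. Late mice went through 4 such cycles and were killed on day 120, and untreated mice received neither agent. The other groups used here were 6 untreated distal, 3 early distal and 4 late proximal arrays, all of whole tissue pieces. Values are deposited log2 expression levels, on which a difference of 1 is a 2-fold difference. Differences are given with their SE, and "called" means an adjusted p under 0.05 in limma, with Benjamini-Hochberg adjustment over all genes.

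In the colon, damage to the epithelial barrier lets bacteria reach the tissue below, where resident macrophages and stromal cells release interleukins and chemokines. These recruit neutrophils and monocytes from the blood, and fibroblasts then degrade and rebuild the extracellular matrix. The proximal and distal colon differ in their Hox code, their microbiota and their epithelial transporters, and DSS injures the distal part most. In whole tissue, more cells of a type and more RNA per cell cannot be told apart.

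Several arrays went against their labels or stood apart. Hoxb13, a homeobox gene of the posterior gut, was at 12.69 in untreated proximal 1 and between 5.21 and 6.18 in the other 5 untreated proximal arrays, while the anterior gene Hoxb6 was at 5.48 there and between 9.38 and 9.96 in the others. Untreated proximal 1 therefore had the Hox levels of the distal arrays, and it also held the exocrine pancreas transcript Cpa1 at 11.51 against 4.41 to 4.69 in the others. Untreated distal 3 had the Hox levels of the proximal arrays, with Hoxb13 at 5.36 and Hoxb6 at 10.27. The 3 early proximal arrays kept proximal levels, with Hoxb13 between 4.66 and 5.6. Xist, the RNA transcribed from the inactive X chromosome of females and singled out after its values were seen, was between 12.64 and 12.68 in untreated proximal 1 to 3 but between 5.16 and 5.23 in untreated proximal 4 to 6. Untreated distal 4 to 6 were low as well, between 5.12 and 6.03, and all early and late arrays were at 12.33 or above. Thus 6 of the 12 untreated arrays went against the label female, so the main results are also given against untreated 1 to 3 alone, against 4 to 6 alone, and against the arrays that match both labels (untreated proximal 2 and 3, untreated distal 1 and 2). All 6 early arrays carried more decimals than the others: between 58.17% and 58.94% of their values of 10 or more had at least 5 decimals, against 0% elsewhere, and this cannot be told apart from the early state. Means of 2 values carry such decimals, and the labels do not say whether each early array is one. If so, each early value would stand for more than 1 hybridization, and the SD and n of the early groups would be those of means. Epithelial markers were present in all 9 arrays, with villin (Vil1), which bundles actin in microvilli, between 12.71 and 13.25 and the mucin Muc2 between 13.02 and 13.48.

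Of the 14123 genes, 704 (4.98%) were higher in early proximal colon and 368 (2.61%) were lower. The counts of called list members below are to be read against these shares. The larger changes were rises, since 445 of the higher genes and 52 of the lower genes differed at least 2-fold. The median difference of all genes was -0.038. The 3 early mice did not respond equally: early proximal 2 was the highest of the 3 in 587 of the 704 risen genes, and early proximal 1 the lowest in 482. The median rise above the untreated mean over these genes was 0.85 in array 1, 1.63 in array 2 and 1.07 in array 3. Without early proximal 2 only 149 genes were called (118 higher, 31 lower), of which 148 were among those called with it. Against untreated 1 to 3 alone 285 genes were called (225 higher, 60 lower), against 4 to 6 alone 1738 (941 higher, 797 lower), and against the untreated arrays that match both labels 501 (297 higher, 204 lower). The 15 genes with the largest rises, which are named below, were called in each of these settings except Slfn1 against the label-matched arrays (adjusted p 0.06). In the authors' deposited table, 1320 of 26933 probe sets had a step-up p under 0.05 for the same contrast, 853 higher and 467 lower in early colon.

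**Figure D1:**
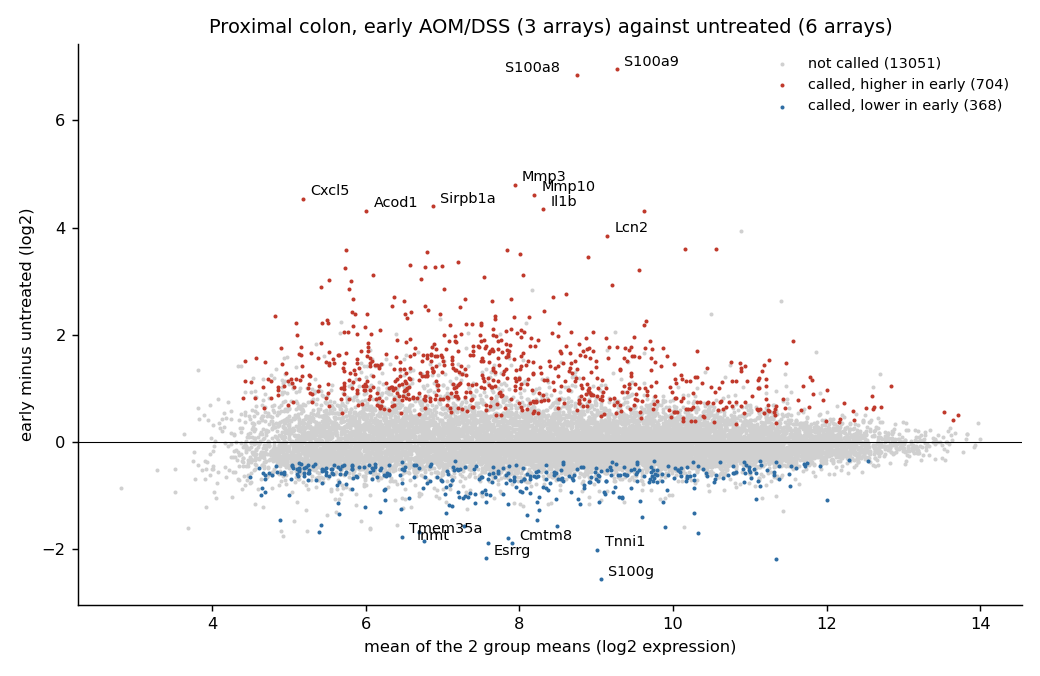
Difference between early and untreated proximal colon for 14123 genes (vertical axis, log2) against the mean of both group means (horizontal axis, log2 expression); 704 genes called higher are red, 368 called lower are blue and the rest grey. The rises reach 6.95 (S100a9), while the largest fall is -2.56 (S100g).

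Neutrophil genes rose most. S100a9 encodes one subunit of calprotectin, the metal-binding protein that fills the neutrophil cytosol. Its levels were 12.35, 13.34 and 12.52 in the early arrays, and its untreated levels ran from 4.86 through a median of 5.64 to 7.03. The groups lay far apart, with a difference of 6.95 ± 0.56 and an adjusted p of 1.82e-08. S100a8, the partner subunit, was at 11.73, 13.17 and 11.62 in early colon against 4.57 to 6.35 in untreated colon, a difference of 6.84 ± 0.55. Fpr2, a receptor for formylated bacterial peptides, was at 7.52, 9.96 and 8.23 against 4.28 to 5.5 (difference 3.55 ± 0.62). Array 2 was the highest for all 3 of these genes.

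Of the 12 neutrophil genes measured, 9 were called higher and none lower, with a median difference of 2.78 against -0.038 for all genes. In 10 of the 12, every early array lay above every untreated array, which held for 8.75% of all genes. The granule proteins cathelicidin (Camp, 3.26 ± 0.60) and lactoferrin (Ltf, 3.12 ± 0.68) were among the called genes. So were the receptors for granulocyte colony-stimulating factor (Csf3r, 2.89 ± 0.42), for triggering of myeloid cells (Trem1, 2.23 ± 0.44) and the interleukin-1 decoy receptor Il1r2 (2.66 ± 0.41). Untreated Csf3r and Trem1 levels reached at most 4.11 and 4.83, near 4.103, the median level of probe sets that the authors' table leaves out, so the size of their differences is uncertain. The 3 members not called were Mmp9 (1.21, adjusted p 0.183), Padi4 (0.90) and Hcar2 (0.43). Clec4d, a myeloid C-type lectin (3.51 ± 0.58), and Sirpb1a, a signal-regulatory protein of myeloid cells (4.40 ± 0.58), also stood among the 15 largest rises, although near-identical Sirpb1 genes may share the Sirpb1a probes. Without early proximal 2, 5 of the 12 neutrophil genes were called, and the median was 2.07.

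Of 26 cytokine and chemokine genes, 9 were called higher, against 4.98% of all genes, and none lower (median 1.01). Il1b, the central cytokine of inflammasome activation, was at 9.12, 12.25 and 10.05 in early colon and between 5.73 and 6.58 in untreated colon, with a median of 6.145. No early array came near the untreated range, and the difference was 4.34 ± 0.47 (adjusted p 3.87e-06). The neutrophil chemokines Cxcl5 (4.54 ± 0.83) and Cxcl2 (3.36 ± 0.52) rose with it, although untreated Cxcl5 lay between 2 and 4.37, where the size of a difference is uncertain. Il11, an interleukin-6 family cytokine made by stromal cells, was at 6.74, 10.16 and 8.34 against 4.9 to 5.37. It separated the groups but varied widely among the early mice (difference 3.27 ± 0.57). Il33, an alarmin (1.95 ± 0.34), Ccl8, a monocyte chemokine (1.89 ± 0.36), and oncostatin M (Osm, 1.65 ± 0.45) were also called. Ptgs2, the inducible cyclooxygenase, was at 11.41 in early proximal 2 but at 8.83 and 8.84 in the other two, above an untreated maximum of 8.6 (difference 1.40 ± 0.42, adjusted p 0.0407). Tnf missed the threshold, at 5.36, 7.29 and 5.62 against 4.6 to 5.35 (adjusted p 0.0523). Without early proximal 2, 5 of the 26 were called.

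Macrophage and dendritic cell genes rose broadly but less far. Of 25 measured, 16 were called higher, against 4.98% of all genes, and none lower. All 25 differences were positive, and the median was 1.09. The count was 5 without early proximal 2 (median 0.87), against untreated 1 to 3 it was 9, and against the label-matched arrays 8. In 18 of the 25 every early array lay above every untreated array, which held for 8.75% of all genes. Ccr2, the receptor that brings monocytes into inflamed tissue, was at 9.03, 10.7 and 9.09 in early colon and between 6.19 and 6.76 in untreated colon (difference 3.12 ± 0.38, adjusted p 1.8e-05). Acod1, which produces the metabolite itaconate when macrophages are activated, was at 6.39, 10.29 and 7.79 against 3.23 to 4.57 (difference 4.31 ± 0.58). The early mice differed widely from each other, with array 2 far above the others, and the low untreated levels make the size of the difference uncertain. The macrophage elastase Mmp12 (2.28 ± 0.59) and the fungal glucan receptor Clec7a (2.22 ± 0.39) followed, and general macrophage markers moved less, with Csf1r at 1.13, Adgre1 at 1.09 and Cd68 at 1.19. Cd163 (0.34), Trem2 (0.55) and Mrc1 (0.70) were not called.

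**Figure D2:**
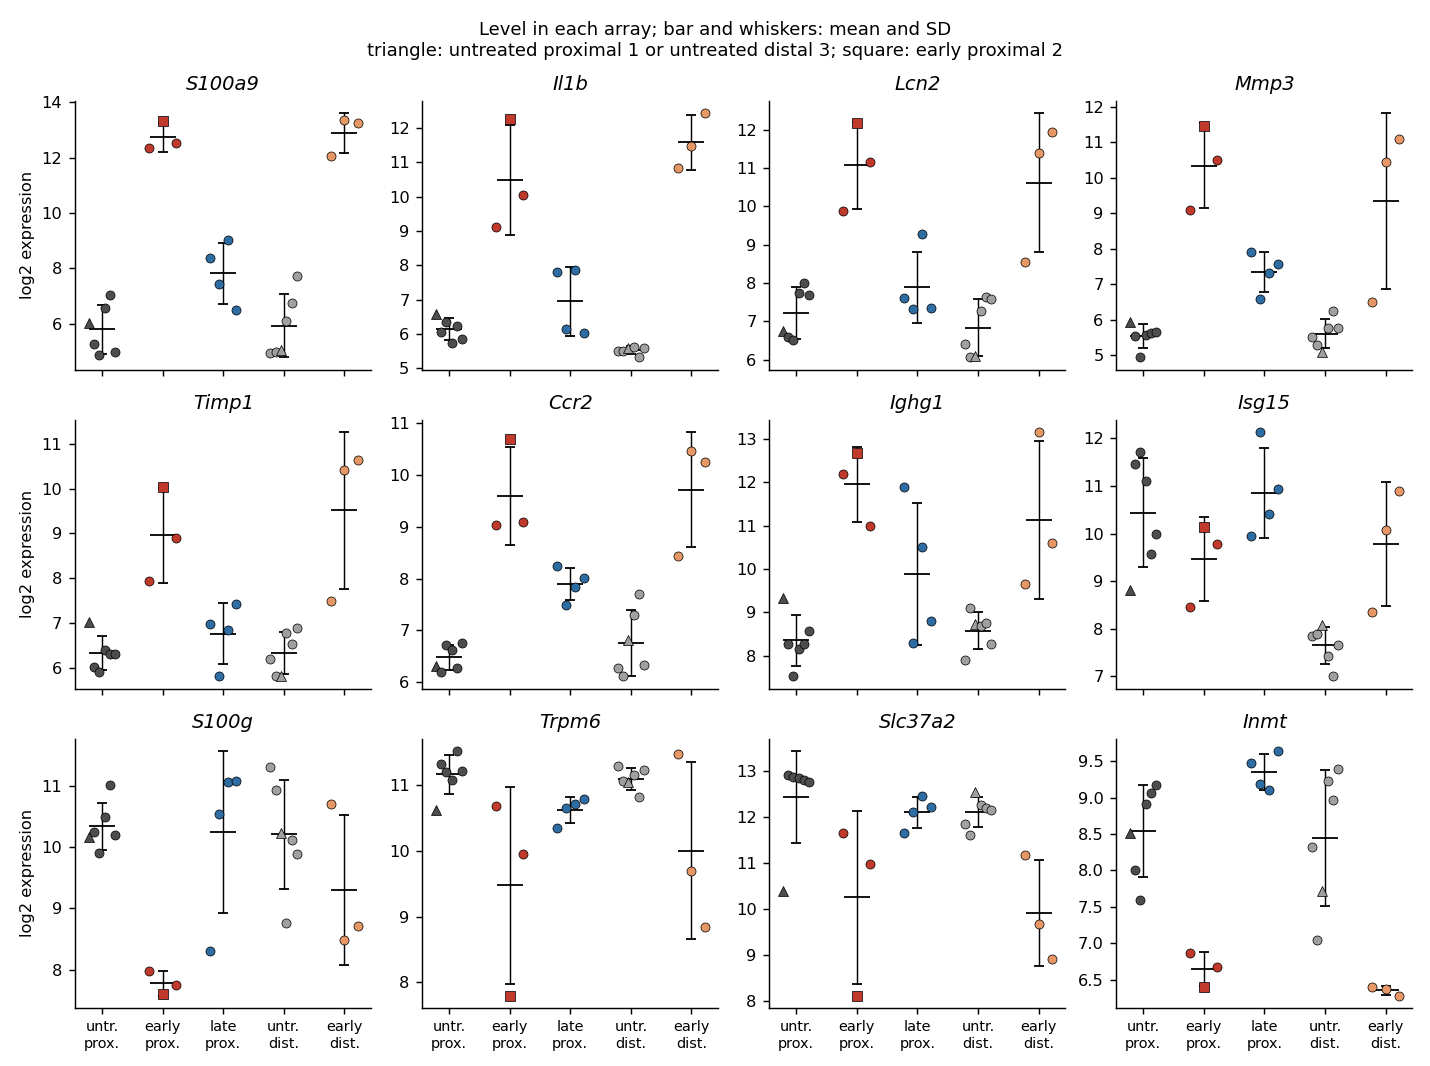
Log2 expression of 12 genes in each array of 5 groups, with the mean and SD; triangles mark untreated proximal 1 and untreated distal 3, and squares mark early proximal 2. S100a9, Il1b, Lcn2, Mmp3, Timp1 and Ccr2 lie above all untreated arrays in all 3 early proximal arrays, S100g and Inmt lie below them, and Isg15 overlaps.

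The list of matrix and fibroblast genes had the most called members, but not the largest share. The 9 of 12 neutrophil and 16 of 25 macrophage and dendritic cell genes were larger shares. Of 45 matrix and fibroblast genes measured, 28 were called higher, against 4.98% of all genes, and none lower. In this list 44 differences were positive, and the median was 0.96. Leaving out early proximal 2 gave 12 calls, against untreated 1 to 3 there were 16, and against the label-matched untreated arrays 23. Mmp3 (stromelysin-1), a protease that cleaves many matrix proteins, was at 9.08, 11.45 and 10.5 in early colon against 4.94 to 5.95 in untreated colon. Mmp10 (stromelysin-2) was at 9.3, 11.99 and 10.2 against 5.33 to 6.67, and the collagenase Mmp13 at 7.22, 9.86 and 8.4 against 5.17 to 6.77. All 3 proteases separated the groups, with differences of 4.80 ± 0.63, 4.61 ± 0.69 and 2.52 ± 0.62.

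These 3 genes lie near each other on mouse chromosome 9 and moved together, and the 250 bases before their starts are given for that reason. The sequences are from RefSeq on GRCm38.p6, on the plus strand. Mmp3 is from chr9:7445572-7445821, Mmp10 from chr9:7502092-7502341 and Mmp13 from chr9:7272264-7272513. Capitals mark the letters TGANTCA, the binding motif of the AP-1 factors, which reads the same on both strands.
Mmp3: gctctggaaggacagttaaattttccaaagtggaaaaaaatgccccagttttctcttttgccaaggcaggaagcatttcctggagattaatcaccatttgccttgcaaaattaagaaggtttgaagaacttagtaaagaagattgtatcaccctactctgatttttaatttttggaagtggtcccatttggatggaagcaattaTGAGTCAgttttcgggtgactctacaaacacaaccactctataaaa
Mmp10: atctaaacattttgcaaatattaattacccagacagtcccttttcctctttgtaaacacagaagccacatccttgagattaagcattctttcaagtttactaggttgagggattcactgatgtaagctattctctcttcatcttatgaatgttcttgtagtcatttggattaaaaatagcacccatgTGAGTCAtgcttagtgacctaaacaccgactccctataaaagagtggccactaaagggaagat
Mmp13: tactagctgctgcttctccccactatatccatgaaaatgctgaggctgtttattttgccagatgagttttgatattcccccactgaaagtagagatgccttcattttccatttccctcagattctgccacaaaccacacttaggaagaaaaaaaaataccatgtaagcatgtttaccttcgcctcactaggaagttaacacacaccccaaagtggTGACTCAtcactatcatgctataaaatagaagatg
Each promoter held 1 match, which began 46, 63 and 35 bases before the start of Mmp3, Mmp10 and Mmp13. The motif occurred in 6.7% of 32851 mouse promoters of the same length. A match describes the letters only.

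The matrix genes that rose included builders as well as proteases. Lox, the enzyme that cross-links collagen and elastin, was at 9.23, 10.93 and 9.2 against 6.56 to 7.77 (difference 2.70 ± 0.49, adjusted p 0.00138). Timp1, an inhibitor of matrix proteases, was at 7.94, 10.04 and 8.89 against 5.92 to 7.02 (2.63 ± 0.49). Both separated the groups in every array. Grem1, a secreted antagonist of bone morphogenetic proteins, rose by 2.06 and elastin (Eln) by 1.79. The fibrillar collagen genes Col1a1 (1.15), Col1a2 (1.21), Col3a1 (0.85), Col5a1 (1.23) and Col5a2 (1.13) were called, as were the basement membrane genes Col4a1 (1.04), Col4a2 (1.01) and Col18a1 (1.70). Dcn (0.53), Lum (0.71), Vim (0.38) and Postn (0.28) were not called. The receptors that mark fibroblasts and pericytes, Pdgfra (0.66) and Pdgfrb (0.85), rose less than the matrix genes named first.

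Of 29 smooth muscle genes, 1 was called, Casq2, a calcium store protein of muscle, at -1.03 ± 0.24, and the median was -0.05. In the distal colon 14 of the 29 were called lower (median -0.51), against 4.25% of all genes lower there. The median difference between the distal and proximal responses of these genes was -0.44 with all arrays and -0.49 without untreated proximal 1 and distal 3. With all arrays, none of the 29 differences passed the test over all genes, and 8 were under an unadjusted p of 0.05, all negative. At that p, 290 of all 14123 genes were negative and 211 positive. Against the label-matched untreated arrays 7 of the 29 were called lower in distal colon.

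Of 26 B and plasma cell genes, 11 were called higher, against 4.98% of all genes, and none lower (median 1.56). Ighg1, the constant region of an immunoglobulin G heavy chain, was at 12.2, 12.67 and 11 in early colon against 7.52 to 9.32 in untreated colon, where untreated proximal 1 was the highest (difference 3.60 ± 0.62, adjusted p 0.000848). Immunoglobulin probe sets can share near-identical segments, so Ighg1 and Ighg (3.60 ± 0.63) may read the same transcripts. Blk, a B-cell kinase, was at 6.97, 8.55 and 7.93 against 4.68 to 6.5 (2.64 ± 0.65), and so lay above every untreated array. The plasma cell genes Mzb1 (1.67 ± 0.47) and Irf4 (1.56 ± 0.44) and the B-cell coactivator Pou2af1 (1.77 ± 0.44) were called too. Without early proximal 2 only 1 member was called (median 1.14). Against untreated 1 to 3 it was 2 members (median 1.37), and against the label-matched untreated arrays 1 (median 1.75).

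Of 29 T and NK cell genes, 5 were called higher (median 0.71), against 4.98% of all genes. They included the co-stimulatory and inhibitory receptors Icos (1.70 ± 0.40), Ctla4 (1.65 ± 0.37) and Cd28 (1.48 ± 0.46). The others were Cd4 (1.08 ± 0.33) and the integrin Itgae (0.62 ± 0.19). Cd3e, the pan-T-cell receptor subunit, was at 9.07, 10.32 and 9.73 against 8.07 to 9.6 and was not called (adjusted p 0.307). Cd8a differed by 0.23 and Gzmb by 0.97, and neither was called. In the distal colon 23 of the 29 were called higher, against 7.02% of all genes higher there. This distal count was 4 against untreated 1 to 3 and 13 against the label-matched untreated arrays. None of the 29 was called in the proximal colon without early proximal 2, against untreated 1 to 3 or against the label-matched untreated arrays, with medians of 0.46, 0.65 and 0.27.

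Of 25 endothelial and lymphatic genes, 6 were called higher, against 4.98% of all genes, and none lower. Among the 6 were Selp (P-selectin, 2.22 ± 0.60), the adhesion molecule Vcam1 (1.37 ± 0.32) and the gut addressin Madcam1 (1.07 ± 0.32). Vcam1 was at 9.58, 10.84 and 9.59 against 8.46 to 8.87, and so lay above every untreated array. The median of the list was 0.49. None of the 25 was called without early proximal 2 (median 0.32), with adjusted p-values of 0.16 for Vcam1, 0.203 for Selp and 0.262 for Madcam1, and 3 were called against untreated 1 to 3. Hdc, which makes histamine, was the called member of the 12 mast cell and eosinophil genes, at 6.24, 9.2 and 7.68 against 4.68 to 5.33 (2.70 ± 0.42).

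**Figure D3:**
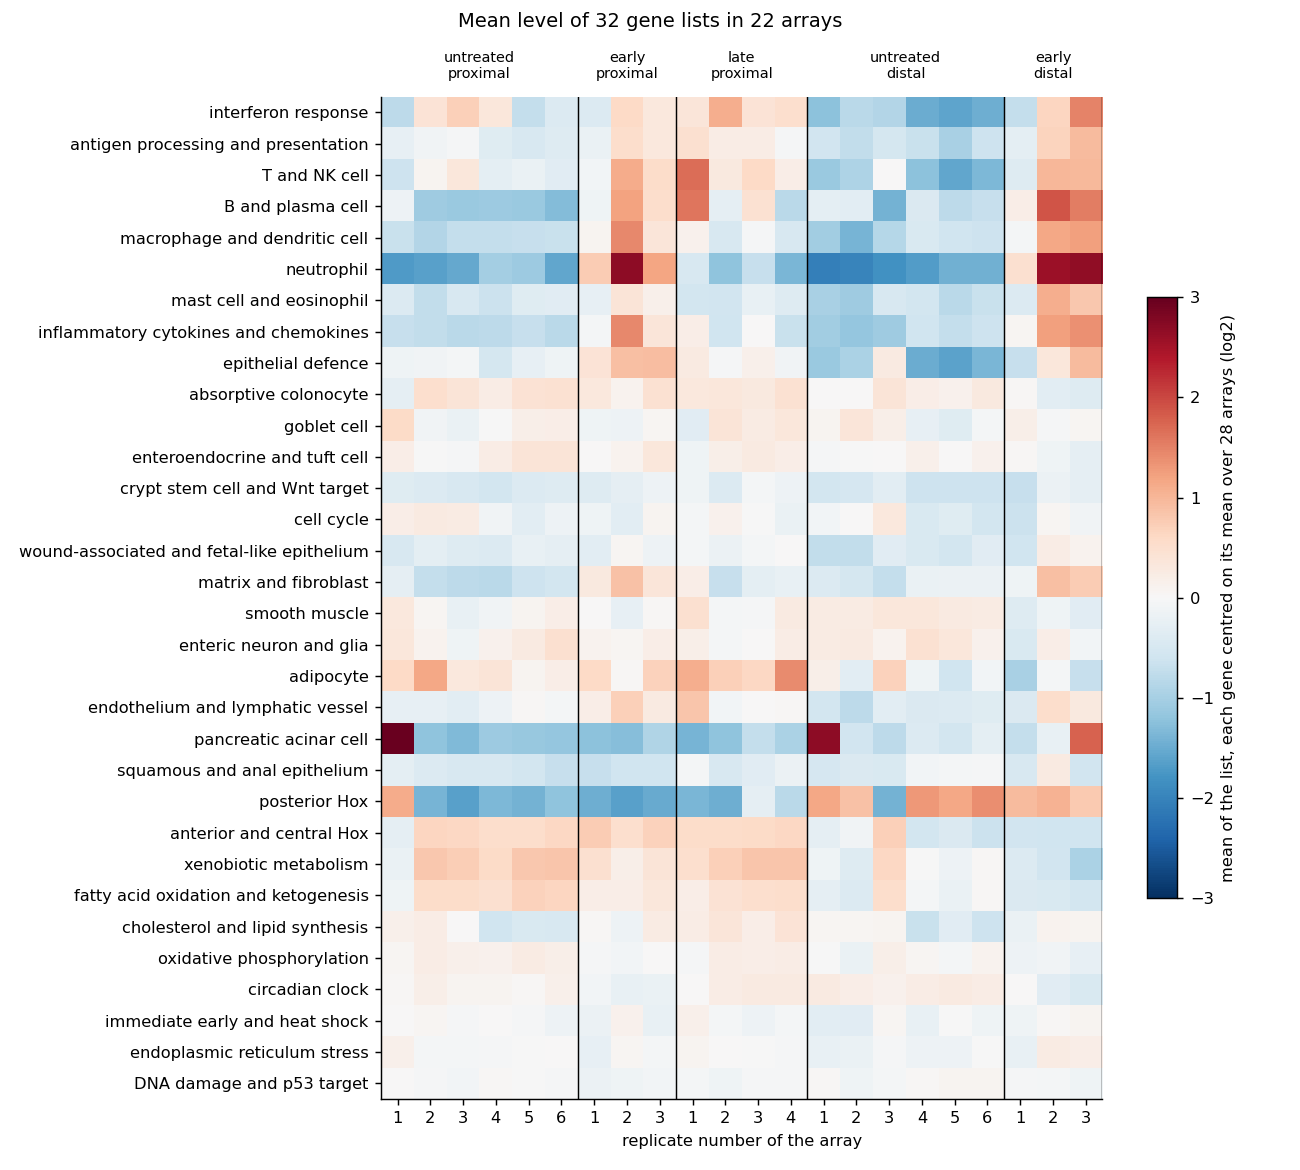
Mean level of 32 gene lists (rows) in 22 arrays (columns), each gene centred on its mean over 28 arrays, with red above and blue below that mean (log2 units). The neutrophil, cytokine, macrophage and matrix rows turn from blue to red in early proximal colon, most in array 2, while the interferon row is mixed in both proximal groups, and untreated proximal 1 stands out in the pancreatic and Hox rows.

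Among 21 genes of epithelial defence, 6 were called higher, with 2 without early proximal 2 and 2 against untreated 1 to 3. Lcn2, which withholds iron from bacteria by binding their siderophores, was at 9.89, 12.17 and 11.15 in early colon against 6.52 to 8 in untreated colon (3.85 ± 0.58, adjusted p 0.000315). Slpi, a secreted protease inhibitor, was at 10.04, 12.45 and 10.99 against 7.43 to 9.11 (3.21 ± 0.56). Duoxa2, the maturation factor of the hydrogen peroxide producing dual oxidase, rose by 2.00 ± 0.41 and Nos2, the inducible nitric oxide synthase, by 1.55 ± 0.44. Each of these genes lay above the untreated range in all 3 early arrays. The acute-phase gene Saa1 was at 12.34, 13.23 and 12.59 against a median of 10.62, but untreated proximal 1 was at 7.29 and the test was not passed (2.64 ± 0.99, adjusted p 0.0972). Without untreated proximal 1 and distal 3 the Saa1 difference was 2.08 ± 0.53 (adjusted p 0.0123). Reg3g, an antibacterial lectin, was already at a median of 12.55 in untreated proximal colon and was not called (1.27, adjusted p 0.594). Hp (haptoglobin), the haemoglobin-binding protein, rose by 3.45 ± 0.56, and Slfn1, a schlafen gene of lymphoid and myeloid cells, by 3.59 ± 0.62 from untreated levels of 3.54 to 4.21, which are low enough that the size of the difference is uncertain.

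Counts for the epithelial lists were small, and are to be read against the 4.98% higher and 2.61% lower of all genes. Of 48 absorptive colonocyte genes, 1 was higher and 3 lower, with a median of 0. No absorptive gene was lower without early proximal 2, and none was called against the label-matched untreated arrays. Trpm6, the apical magnesium channel, was at 10.68, 7.8 and 9.96 against 10.63 to 11.52 (-1.69 ± 0.43, adjusted p 0.0161), and Slc37a2, a sugar-phosphate antiporter, at 11.66, 8.11 and 10.98 against 10.39 to 12.92 (-2.18 ± 0.59). Both were lowest by far in early proximal 2, and neither was called without it. Apoa4, an apolipoprotein of enterocytes, was higher, at 7.67, 7.35 and 7.98 against 5.7 to 6.88 (1.08 ± 0.24). One goblet cell gene of 22 was called, the transcription factor Foxa3 (-0.96 ± 0.22), and 1 enteroendocrine gene of 27, somatostatin (Sst, -0.62 ± 0.19). Among 31 crypt stem cell and Wnt target genes the stem cell transcription factor Ascl2 was called (-1.01 ± 0.28, groups overlapping), with early levels of 6.62, 6.8 and 6.93 against 6.7 to 8.26, while Lgr5 (0.58) was not called. Of 39 cell cycle genes, 1 was called, Ccne2 (cyclin E2, -0.58 ± 0.18), and Mki67, the marker of dividing cells, differed by 0.33 with an adjusted p of 0.423. The cell cycle median was -0.14 with all arrays, -0.35 against untreated 1 to 3 and 0.09 against 4 to 6. Of 28 genes of wound-associated and fetal-like epithelium, the 1 called was Il33. Apoa4 (adjusted p 0.0243) and Il33 (0.0409) were still called without early proximal 2. Foxa3 (0.0511), Sst (0.224), Ascl2 (0.123) and Ccne2 (0.153) were not.

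The largest fall was that of S100g (calbindin-D9k), the vitamin D dependent calcium-binding protein of the absorptive epithelium. Its early levels of 7.99, 7.6 and 7.75 lay close together, and untreated levels ran from 9.91 through 10.22 to 11.01. The difference was -2.56 ± 0.54 (adjusted p 0.00487), while without early proximal 2 it was -2.46 with an adjusted p of 0.057. Esrrg, an orphan nuclear receptor of oxidative metabolism, fell to 7.1, 5.71 and 6.64 from 8.23 to 9.12 (-2.17 ± 0.45).

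Several of the other named falls are single genes known from muscle or nerve, although the lists of those tissues had few calls, with 1 of 29 smooth muscle genes and 1 of 28 enteric neuron and glia genes lower. Tnni1, slow skeletal troponin I, was at 8.11, 7.77 and 8.16 against 9.77 to 10.56 (-2.01 ± 0.34, adjusted p 0.000747). Ngb (neuroglobin), a globin of neurons, was at 6.06, 5.35 and 6.16 against 7.2 to 7.78 (-1.67 ± 0.19, adjusted p 8.62e-06). Mkx, the Mohawk homeobox factor of tendon and muscle lineages, was at 9.05, 8.69 and 8.99 against 10.17 to 10.53 (-1.39 ± 0.21). These 3 genes had narrow ranges in both groups, and they were among the 4 falls still called without early proximal 2, together with Tmem35a, a chaperone of nicotinic acetylcholine receptors (-1.77 ± 0.28). The muscle enolase Eno3 (-1.58 ± 0.45), the muscle protein Smpx (-1.56 ± 0.45) and the muscle isoform Cox7a1 of a cytochrome oxidase subunit (-1.33 ± 0.31) fell as well. Untreated proximal 1 was the highest array for Tnni1, Eno3, Smpx, Nmu and Bex4, and without it Eno3 (adjusted p 0.0506), Smpx (0.0503), Nmu (0.0545) and Bex4 (0.0655) were just short of the threshold, although all 15 named falls were called without untreated proximal 1 and distal 3 together. Inmt, a methyltransferase of tryptamine and other indoles, was at 6.87, 6.4 and 6.67 against 7.59 to 9.17 (-1.89 ± 0.39). The remaining named falls were Cmtm8 (-1.89 ± 0.38), the smooth muscle contracting peptide neuromedin U (Nmu, -1.57 ± 0.46), Bex4 (-1.67 ± 0.51), the secreted glycoprotein Azgp1 (-1.32 ± 0.32) and the collagen Col8a2 (-1.31 ± 0.29). Against the label-matched untreated arrays 8 of the 15 falls were called.

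Detoxification genes leaned lower. Of 40 xenobiotic metabolism genes, 34 differences were negative, with a median of -0.30. Of the 40, 6 were called lower, against 2.61% of all genes. The called genes were the glutathione transferases Gstt1 (-1.02 ± 0.20), Gstm6 (-0.96 ± 0.29), Gstm1 (-0.62 ± 0.17) and Gstt3 (-0.55 ± 0.16), the microsomal epoxide hydrolase Ephx1 (-0.84 ± 0.19) and the flavin monooxygenase Fmo1 (-1.11 ± 0.29). Gstt1 was at 8.74, 8.67 and 9.04 against 9.67 to 9.95, with no overlap. Cyp1b1, a cytochrome P450 found in stromal cells, went the other way, at 8.7, 10.17 and 8.38 against 5.08 to 6.64 (3.08 ± 0.58). Without untreated proximal 1 and distal 3, 9 members were lower and the median was -0.52, whereas 1 was lower without early proximal 2 (median -0.25), and 1 against untreated 1 to 3 (median -0.20). The lists of fatty acid oxidation (median -0.25 over 39 genes) and oxidative phosphorylation (median -0.22 over 41 genes) had 34 and 38 negative differences. In the first, the called gene was Fgf15, an enterocyte hormone induced by bile acids, which rose (2.06 ± 0.39). Ndufb5, a subunit of respiratory complex I, was called lower in the second (-0.36 ± 0.10), and 13 of the 41 lay below the untreated range in every early array, against 9.11% of all genes.

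Among 20 circadian clock genes 1 was called, the clock output protease Usp2 (-1.06 ± 0.33), and 15 differences were negative. The time of day of the dissections was not given in the sources used here. A few genes were called in 4 other lists: Fas, a death receptor and p53 target (0.57 ± 0.16), Egr2 and Egr3, which are immediate early factors (1.37 ± 0.36 and -0.48 ± 0.12), the glial filament Gfap (0.70 ± 0.21) with the neuronal Calb2 (-0.71 ± 0.22), and Hoxa10 (-0.74 ± 0.15). Only Hoxa10 of these was still called without early proximal 2 (adjusted p 0.00376), and Usp2 was not (0.25). Cd74, the chaperone of major histocompatibility complex class II, Lgmn and Nlrc5 were higher among 14 antigen presentation genes (1.05 ± 0.24, 1.05 ± 0.26 and 1.76 ± 0.52). None of the 14 was called without early proximal 2 (adjusted p 0.105 for Cd74, 0.159 for Lgmn and 0.196 for Nlrc5), against untreated 1 to 3 or against the label-matched arrays. No gene was called among 15 adipocyte, 9 squamous epithelium, 19 anterior Hox, 28 endoplasmic reticulum stress, 31 cholesterol synthesis and 14 pancreatic acinar genes. The last had a median of -0.80 that followed untreated proximal 1, and without that array and untreated distal 3 it was -0.17.

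The response was then set beside that of the distal colon, where lesions later form and where 992 genes (7.02%) were higher and 600 (4.25%) lower. Of the 704 genes higher in proximal colon, 537 were also higher in distal colon (76.3% of the proximal and 54.1% of the distal calls). Of the 368 lower, 113 were shared (30.7% and 18.8%), and none was called in opposite directions. With all arrays, no gene (0%) passed the test of the difference between both responses in limma, 501 did at an unadjusted p under 0.05, and the smallest adjusted p was 0.923. S100a9 rose by 6.96 ± 0.56 in distal colon, a difference between regions of 0.01 (95% interval -1.63 to 1.65), and Lcn2 by 3.78 ± 0.58 (difference -0.08, interval -1.77 to 1.62). Il1b rose by 6.04 ± 0.47 in distal colon, 1.70 more than in proximal colon (interval 0.33 to 3.07), and Acod1 by 6.29 ± 0.58, 1.98 more (interval 0.28 to 3.68). Mmp3 rose by 3.73 ± 0.63, and its interval for the difference ran from -2.89 to 0.76. These intervals are not adjusted for the number of genes. Cmtm8, by contrast, fell by 1.89 in proximal colon and differed by -0.01 ± 0.38 in distal colon.

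**Figure D4:**
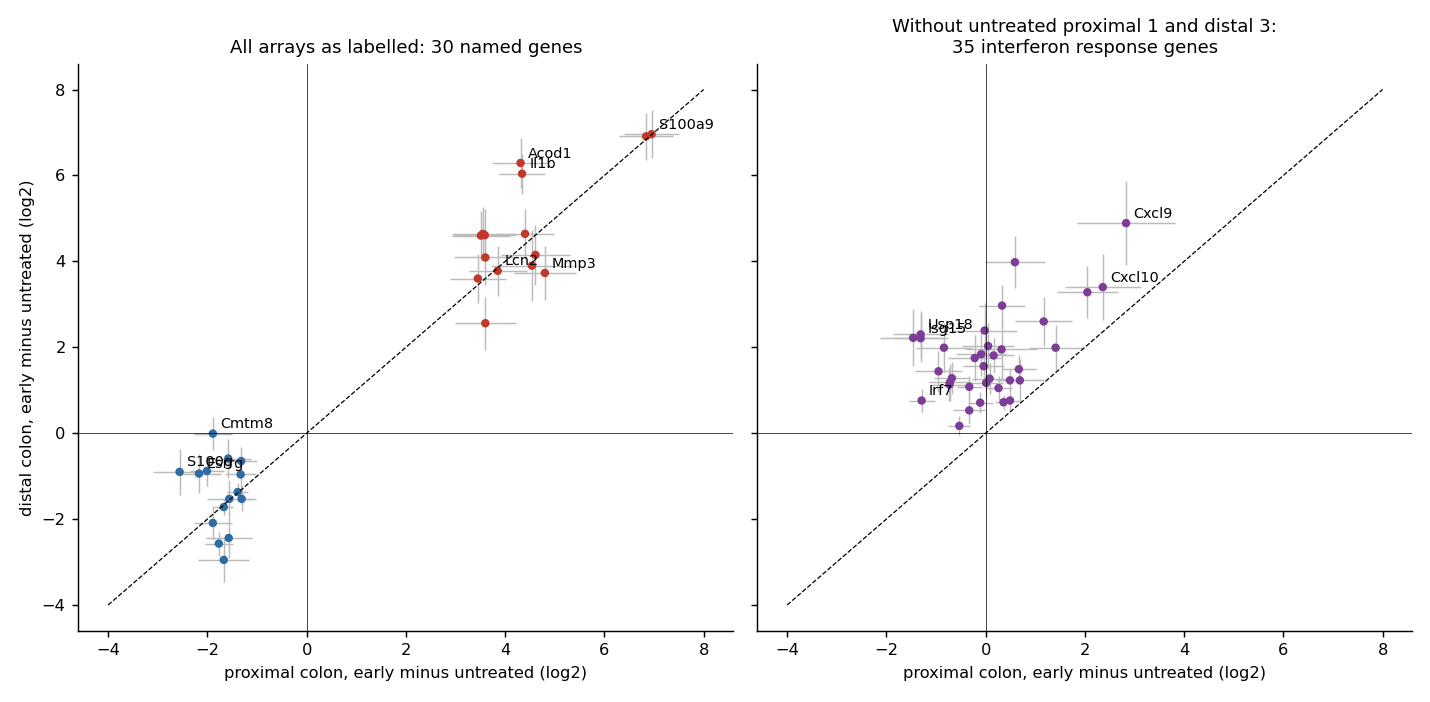
Early minus untreated difference in distal colon (vertical axis, log2) against that in proximal colon (horizontal axis, log2), with SE bars and a dashed line of equality, for the 30 named genes with all arrays (left; rises red, falls blue) and for 35 interferon response genes without untreated proximal 1 and distal 3 (right). S100a9 lies on the line in the left panel, and most interferon genes lie above it in the right panel.

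Interferon response genes were set side by side in both regions. They are switched on when interferons activate STAT transcription factors and serve in antiviral defence and antigen presentation. In proximal colon 2 of 35 were called higher and none lower, near the 4.98% and 2.61% of all genes. The 2 were the chemokine Cxcl10 (2.45 ± 0.72) and the GTPase Tgtp1 (1.96 ± 0.58), and the median of the 35 was 0.14. Against the label-matched arrays none was higher and 2 were lower (median -0.45), against untreated 1 to 3 none was called (median -0.14), and without untreated proximal 1 and distal 3, 2 were higher and 1 lower (median 0.01). In distal colon 25 were called higher, against 7.02% of all genes, and the median of the 35 was 1.55. The median difference between regions was 1.37, and 21 of the 35 had an unadjusted p under 0.05, all of them larger in distal colon, although none passed the test over all genes. The median difference was 1.42 against untreated 1 to 3, 1.48 against untreated 4 to 6 and 1.91 against the label-matched arrays, with 15, 20 and 22 genes at an unadjusted p under 0.05, again all in the same direction. Over all 14123 genes, 211 were positive and 290 negative at that p with all arrays. The counts were 328 and 427 against untreated 1 to 3 and 382 and 424 against 4 to 6. Against the label-matched arrays they were 1165 and 1073, so the 22 stand beside a much larger background. Without early proximal 2 the median difference was 1.65, and no member was then called in proximal colon. The count called in distal colon was 8 against untreated 1 to 3 and 6 against the label-matched arrays.

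Isg15, a ubiquitin-like protein induced by interferon, was at 8.46, 10.13 and 9.78 in early proximal colon and between 8.81 and 11.71 in untreated proximal colon, with a median of 10.55. In distal colon it was at 8.35, 10.08 and 10.9 in early mice against 7 to 8.08 in untreated mice. The early ranges of both regions overlapped, while every untreated proximal array lay above every untreated distal array. The Isg15 difference was -0.98 ± 0.59 in proximal and 2.12 ± 0.59 in distal colon. Usp18, which removes Isg15 from proteins, had a median of 10.37 in untreated proximal and 7.21 in untreated distal colon, and differences of -0.90 ± 0.63 and 2.06 ± 0.63. The 250 bases before the Isg15 start are given because they hold matches to the response element named for stimulation by interferon. They are from RefSeq on GRCm38.p6, chr4:156200819-156201068 on the minus strand, and capitals mark overlapping matches to the core of the interferon-stimulated response element, searched on both strands as GAAA, any 2 bases and GAAA again.
Isg15: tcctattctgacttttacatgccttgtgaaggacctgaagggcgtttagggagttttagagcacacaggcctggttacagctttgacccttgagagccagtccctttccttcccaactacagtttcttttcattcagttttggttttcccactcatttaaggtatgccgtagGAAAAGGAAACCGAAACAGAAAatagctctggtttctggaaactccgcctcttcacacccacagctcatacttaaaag
The 3 matches begin 78, 72 and 66 bases before the start. The motif occurred in 3.0% of all 32851 promoters. It occurred in 14 of the 30 promoters (46.7%) of the 26 interferon response genes that had one in that set. As for AP-1, a match is a description of the letters.

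Without untreated proximal 1 and distal 3, which carry the other region's Hox levels, 17 genes passed the test of the difference between regions, 11 with a positive and 6 with a negative distal minus proximal value. The largest were -2.77 for AB099516, -2.75 for Wnt8b and 2.65 for C17orf96. Untreated means were low in proximal colon for AB099516 (4.67) and Wnt8b (4.25) and in distal colon for C17orf96 (3.51). The size of these differences is therefore uncertain. Tnnt2 (-2.25), Chst11 (1.92) and Cmah (1.84) were also called. Irf7, the transcription factor that amplifies interferon production, was one: its early minus untreated value was -1.29 ± 0.26 in proximal colon (adjusted p 0.00286) and 0.76 ± 0.26 in distal colon (adjusted p 0.0596), a difference of 2.05 ± 0.37 (adjusted p 0.0191). Arg2, the mitochondrial arginase, differed by -0.32 ± 0.36 in proximal and 2.24 ± 0.36 in distal colon, and its mean was 10.81 in untreated proximal against 6.86 in untreated distal colon. Padi2, a peptidylarginine deiminase, differed by -0.31 ± 0.18 and 1.37 ± 0.18, from untreated means of 10.28 and 7. For Arg2, Padi2, Chst11 and Cmah the region with the higher untreated level was the one that differed less. For AB099516, Wnt8b, C17orf96, Tnnt2, Irf7, Cmtm8 and Apoa4 it was the one that differed more. Cmtm8 was lower in proximal colon (-2.13 ± 0.28 against 0.25 ± 0.28, adjusted p of the difference 0.0078). Apoa4 was higher in proximal colon (0.90 ± 0.17) and not in distal colon (-0.26 ± 0.17, adjusted p of the difference 0.0482). Wnt8b, a Wnt ligand, fell by 2.49 in distal colon and differed by 0.26 in proximal colon, where its untreated mean was 4.25. Against the label-matched untreated arrays, 4 genes passed this test, and Irf7, Apoa4 and Cmtm8 (adjusted p 0.0874) were not among them. When untreated proximal 1 alone was left out no gene passed, and Cmtm8 had an adjusted p of 0.406.

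Late proximal colon, after 4 cycles, was compared with early proximal colon after 2. In total 23 genes (0.163%) were higher and 71 (0.503%) lower in late colon, and late proximal 3 and 4 held Hoxb13 at 8.94 and 8.57, between the proximal and distal levels. The total was 17 without early proximal 2 and 301 without late proximal 1. Without early proximal 3, late proximal 2, 3 or 4 it was 48, 25, 41 or 27. The inflammatory genes led the lower ones. S100a9 was between 6.48 and 9.01 in the 4 late arrays, -4.92 ± 0.61 relative to early colon (adjusted p 0.000106), and Il1b between 6.02 and 7.85 (-3.52 ± 0.51, adjusted p 0.000561). Lcn2 (-3.19 ± 0.63), Acod1 (-3.15 ± 0.63), Mmp10 (-3.19 ± 0.75) and Mmp3 (-2.99 ± 0.68) were lower too. Among the lists, 13 of 45 matrix genes were lower, as were 6 of 12 neutrophil genes and 1 of 26 B and plasma cell genes. Ighg was between 10.01 and 13.18 in late colon and did not differ detectably from early colon (-0.85 ± 0.69, adjusted p 0.569). Among the genes higher in late colon were Inmt, at 9.11 to 9.64 (2.71 ± 0.42), S100g (2.47 ± 0.59), Ngb (1.63 ± 0.21), the detoxification genes Ephx1 (1.28) and Gstt1 (1.05), and the clock genes Per2 (1.45) and Hlf (1.12), with the clock activator Arntl lower (-0.90). Both comparisons use the same early arrays, so a level peculiar to those arrays would move both.

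Between late and untreated proximal colon 3 genes (0.0212%) were called, all higher in late colon: Gpnmb, a glycoprotein of lipid-laden macrophages, Cd84, a leukocyte receptor of the signalling lymphocyte activation family, and 1700007E05Rik. Gpnmb had a mean of 6.92 ± 0.30 (SD, n = 6) in untreated, 8.12 ± 0.38 (n = 3) in early and 8.73 ± 0.45 (n = 4) in late proximal colon. Cd84 had means of 6.55 ± 0.15, 8.25 ± 0.49 and 7.74 ± 0.26 in the same order. All 3 genes were called in early colon as well, and none was called in late minus early. So few calls do not mean equal levels, since 1193 genes had an unadjusted p under 0.05 between late and untreated proximal colon. S100a9, the largest early rise, was 2.03 ± 0.51 higher in late than in untreated colon (adjusted p 0.15). S100g, the largest early fall, differed by -0.09 ± 0.50 (adjusted p 0.994). Late against untreated colon was not run in the alternative settings.

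**Figure D5:**
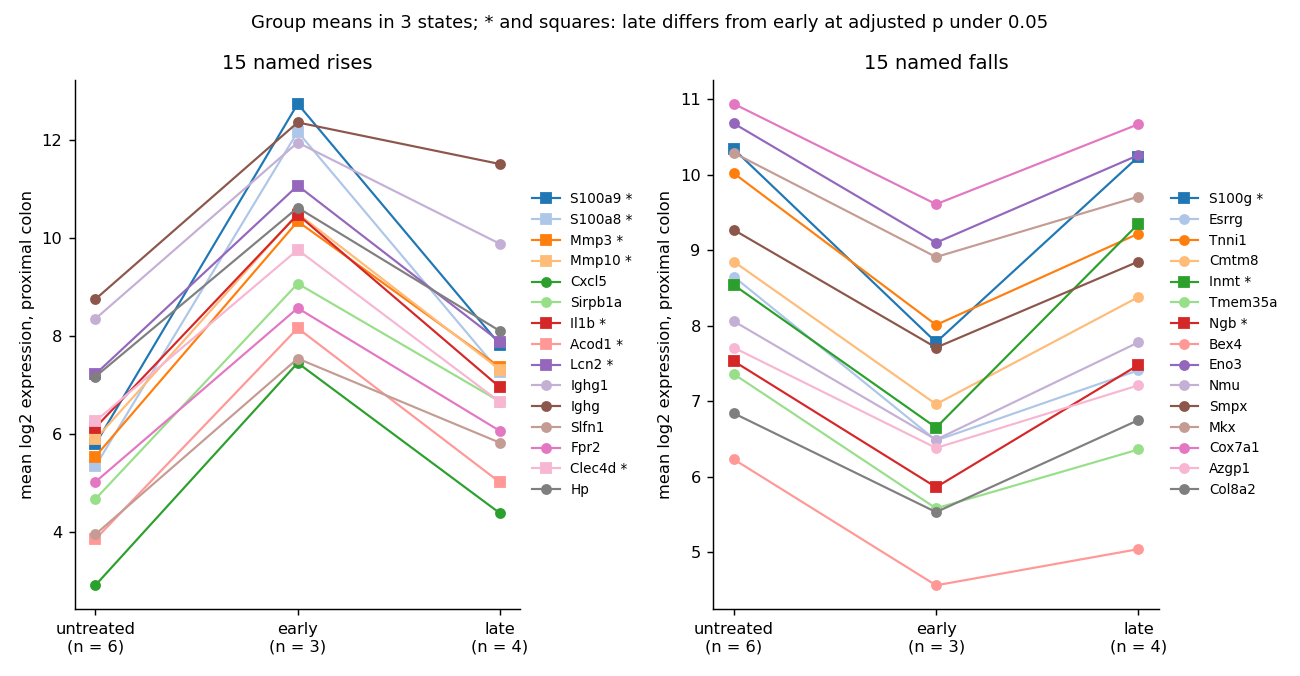
Mean log2 expression of the 15 named rises (left) and 15 named falls (right) in untreated, early and late proximal colon; squares and asterisks mark genes whose late level differed from the early one at an adjusted p under 0.05. S100a9 goes from 5.79 to 12.74 and 7.82 log2 units, and Inmt from 8.54 to 6.65 and 9.35.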

How the data were processed

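The deposited log2 expression values of 45101 Affymetrix probe sets on 28 arrays were made by the authors with RMA in Partek 6.5, per the submitters' processing notes. Genes were named from the authors' deposited table of 26933 probe sets, made in the authors' ANOVA. Its signed fold-change score and step-up p-value, as deposited, were used only for counts. Probe sets with no gene or several were left out, and 18104 outside that table were not tested. Symbols were updated through RefSeq tables.

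A model of 6 group means was fitted to 14123 genes on all 28 arrays in limma 3.58.1 (R 4.3.3), with 22 residual degrees of freedom and Benjamini-Hochberg adjustment at 0.05, and was tested on simulated data. All tests were two-sided. Named genes are the 15 largest called rises and falls where every early array lay beyond every untreated array and the higher group's mean was at least 6, passing over predicted genes, clones, olfactory receptors and pseudogenes. For each list, the 3 largest called members or the one with the smallest p were named, others where the list is described, and for the difference between regions genes among the 8 largest called in each direction without untreated proximal 1 and distal 3. Members and lists (32 lists, 823 measured genes) were chosen with earlier results of these data known. The labels call the arrays biological replicates from separate animals, but do not say whether proximal and distal arrays share animals. The number of arrays limits the precision. Figures were drawn with matplotlib 3.10.9. One gene is not reported here.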

Additional observations from a re-analysis of the deposited data

Results flagged for a closer look

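Among the 67 values tested in the 6 untreated proximal arrays, 19 had one array apart from the others by Dixon's criterion. In 17 of the 19 this was untreated proximal 1. Chance meets the criterion in about 1 group in 20. The 67 values are not independent, since they include the Hox genes of the label check and lists with genes in common. The count of 19 is therefore a description and no test against that rate. Untreated proximal 1 was highest for Hoxb13 (12.69 against 6.18 at most in the others), Hoxd13 (11.37 against 3.79), Tnni1 (10.56 against 10.01), Bex4 (8.11 against 6.13) and Smpx (10.68 against 9.34). It was lowest for Hoxb6 (5.48 against 9.38 at least in the others), Hoxb4 (6.85 against 8.74), Cmtm8 (7.66 against 8.94) and Tmem35a (6.08 against 7.38).

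The mean centred levels of gene lists gave the other values, in log2 units. Untreated proximal 1 was highest for the pancreatic acinar (2.96), posterior Hox (1.12), B and plasma cell (-0.16) and endoplasmic reticulum stress (0.15) lists. It was lowest for the absorptive colonocyte (-0.28), anterior and central Hox (-0.26), xenobiotic metabolism (-0.19) and fatty acid oxidation (-0.13) lists. Untreated proximal 2 was lowest for the macrophage and dendritic cell list (-0.87 against -0.72 at least), and untreated proximal 6 for the immediate early and heat shock list (-0.16 against -0.03 at least).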

How the results depend on the processing

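The number of genes called between early and untreated proximal colon (1072) moved most with the arrays used. It was 3945 with array weights, 1738 against untreated 4 to 6, 285 against untreated 1 to 3, 1714 without untreated proximal 1 and distal 3, 341 at an adjusted p under 0.01 and 497 with a 2-fold threshold. Leaving out 1 array at a time gave 149 (without early proximal 2) to 1377 (without untreated proximal 1), with 616 without early proximal 3 and 688 without untreated proximal 5. In alternatives chosen after seeing the data it was 309 without untreated proximal 1 and early proximal 2 and 501 against untreated proximal 2 and 3. The difference between the distal and proximal responses (0 called) gave 375 with array weights, 9 against untreated 4 to 6, 17 without untreated proximal 1 and distal 3, 4 against the label-matched arrays, and 0 to 2 when leaving out 1 array (2 without early distal 1). Late minus early (94 called) gave 17 (without early proximal 2) to 301 (without late proximal 1), with 48 without early proximal 3 and 25, 41 and 27 without late proximal 2, 3 and 4. With the replicate block the counts were 491 for early against untreated and 59 for late minus early. For pairs of arrays, the deviations from the group means, not the levels, were correlated across genes. Same-numbered early and untreated proximal arrays correlated in this way at -0.04, -0.11 and -0.14, so the numbers do not pair them. The deviations of same-numbered proximal and distal arrays correlated at 0.69, 0.55 and -0.02 in early mice and between -0.01 and 0.58 in untreated mice. They were not over 0.1 in every pair. A random replicate block (correlation 0.185) gave 1059 calls for early against untreated and 0 for the difference between regions. Centring array medians shifted the median of all genes to -0.144 and gave 572 higher and 856 lower, and quantile normalization gave 637 higher and 502 lower, against 704 and 368. Other alternatives stayed between 866 and 1581, and the early minus untreated differences of the 30 named genes kept their sign in each alternative run on them (the one on all probe sets was not, and the level filter removed 3 genes). Leaving out arrays gave more calls than 1072 in some settings, such as 1377, 1714 and 1738, and fewer in others, such as 149 and 285. The cause of these changes was not tested, except that a stricter threshold calls fewer genes by construction.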
